A study of Mus musculus with 6 samples.

Results

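Mast cells are tissue-resident immune cells of the bone marrow lineage, and the 10 genes described here are those that mark them: the granule proteases Cpa3, Mcpt4, Cma1, Tpsb2 and Tpsab1, the surface receptors Kit, Fcer1a and Ms4a2, the histamine-forming enzyme Hdc and the transcription factor Gata2. The genes were chosen by name for what they encode, with earlier results of these data known, and matched to the tables by Ensembl identifier. Of the 10 genes, 8 had values among the 15663 genes listed, and 7 of those 8 passed the study's criterion for testing (over 50 counts in 2 or more samples), as did 13454 of all listed genes. Tpsab1 was listed but did not reach this criterion. Fcer1a and Ms4a2 had no values in the tables used here, which hold no gene with a count under 1 in any library, and their levels were not analysed.

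The data are RNA-seq counts from RPE-choroid, the retinal pigment epithelium (RPE) with the vascular choroid beneath it, of male mice aged 8 to 10 weeks. The strain is given as C57BL/6 in the labels of both groups and as C57BL/6J in the study's methods, and no allele or transgene is named for either group. The 3 control mice were untreated, and the 3 subretinal fibrosis (SRF) mice received 4 laser burns per eye, a second burn to each lesion 10 days later, with tissue collected 20 days after the second laser and no other agent named. Each library came from 1 mouse, and whether 1 eye or both eyes went into it is not given in the sources used here. No separation of lesions from the tissue around them is named, so each value stands for the RPE-choroid sample as a whole.

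Mast cells depend on the receptor tyrosine kinase Kit and its ligand, and they store proteases, histamine and proteoglycan in granules that are released when IgE bound to its high-affinity receptor is cross-linked. Connective tissue mast cells, the kind found in skin and in the choroid, are known for a protease set made up of a carboxypeptidase (Cpa3), members of the chymase family (Mcpt4, which cuts after aromatic residues, and Cma1, whose mouse form is elastase-like) and tryptases (Tpsb2 and Tpsab1, which cut after lysine and arginine). Gata2 is a transcription factor that mast cells need to form, and it binds a short GATA motif.

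The bases in front of the protease genes are shown first, since these genes were the ones higher in every SRF library or nearly so. RefSeq sequences (build GRCm38.p6) were matched by symbol for 8 of the 10 genes, and not for Tpsb2 and Tpsab1. Each line holds the 250 bases before the start of the gene, 5′ to 3′ on the coding strand, with matches to a GATA motif (AGATAA or TGATAA, searched on both strands) in capitals.
Cpa3 (chr3:20242182-20242431, minus strand): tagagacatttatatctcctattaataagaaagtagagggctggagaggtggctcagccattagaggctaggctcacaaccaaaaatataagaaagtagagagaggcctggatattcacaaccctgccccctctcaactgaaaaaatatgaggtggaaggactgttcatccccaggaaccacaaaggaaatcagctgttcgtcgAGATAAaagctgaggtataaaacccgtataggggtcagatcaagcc
Mcpt4 (chr14:56062311-56062560, minus strand): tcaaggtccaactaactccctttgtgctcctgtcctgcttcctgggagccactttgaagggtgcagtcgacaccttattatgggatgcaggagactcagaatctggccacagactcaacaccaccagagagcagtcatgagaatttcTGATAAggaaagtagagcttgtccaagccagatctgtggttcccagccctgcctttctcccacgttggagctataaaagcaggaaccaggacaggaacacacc
Cma1 (chr14:55944676-55944925, minus strand): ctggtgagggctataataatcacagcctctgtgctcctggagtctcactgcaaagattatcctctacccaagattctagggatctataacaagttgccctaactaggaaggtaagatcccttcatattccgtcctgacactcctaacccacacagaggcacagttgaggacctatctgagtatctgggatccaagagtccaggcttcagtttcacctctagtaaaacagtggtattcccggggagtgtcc

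The Cpa3 window held 1 match, AGATAA, 46 bases before the start, and the Mcpt4 window held 1 match, TGATAA, 103 bases before the start. No match was found in the Cma1 window. Among the receptors, Fcer1a held 1 match and Ms4a2 held 3, as drawn from the same 250-base windows, while those of Kit, Hdc and Gata2 held 0. Of all 32851 RefSeq windows of this length, 5452 (16.6%) held at least 1 match. A match of these letters is a description of the sequence and does not show that the site is bound. The letters of a TATA box (TATAAA, both strands) stood 31 bases before the start of Cpa3, with a match on the other strand at 242 bases, and 32 bases before the start of Mcpt4. None was found for Cma1, and 12.4% of all windows held at least 1.

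In the GRCm38 annotation Mcpt4 (chr14:56059629-56062313) and Cma1 (chr14:55941451-55944675) lie on the same strand of chromosome 14, and Tpsb2 (chr17:25366305-25369098) and Tpsab1 (chr17:25343245-25345562) lie on opposite strands of chromosome 17. Cpa3 lies at chr3:20215620-20242181, Kit at chr5:75574916-75656722, Hdc at chr2:126593667-126619299 and Gata2 at chr6:88193891-88207032. Cpa3 was the only one of the 10 genes that overlapped another annotated gene, the microRNA Mir7007, on the same strand and with no shared exon. The chymases and tryptases are families of similar genes, so their transcripts were searched for stretches of 50 bases that occur unchanged in another gene. Mcpt4 shared 58 of its 1059 stretches (5.48%) with Cma2 and Mcpt9, and Cma1 shared 56 of 1041 (5.38%) with Gm48934, none of which had values here. Tpsb2 and Tpsab1 shared none, and their longest identical run was 39 bases. How reads that fit several genes were counted is not given in the sources used here, so a small exchange of reads inside each family cannot be told apart from expression.

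Library totals over the listed genes lay between 13667310 and 24356023 counts, and TMM factors, which scale libraries to each other, lay between 0.978 and 1.03, so 3 counts correspond to between 0.125 and 0.223 CPM, counts scaled to a common library size. The libraries differed in retinal RNA that does not follow the groups. The mean log2 CPM of 20 photoreceptor genes was 8.01 in control mouse 1 and 8.04 in SRF mouse 3, and between 4.03 and 5.27 in the other 4 libraries. The RPE, the labelled tissue, was present in all 6 libraries, with a mean log2 CPM of its 10 markers between 9.65 and 10.3. Nothing in the labels says that the mice of a group were processed on separate days, and an effect of processing day was not tested. Gene p-values set a group difference against a variation estimated from these 3 mice per group and from other genes.

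The granule proteases were present at low levels in every control library and were higher in SRF. Of the 5, 4 had their lowest SRF value above their highest control value, namely Cpa3, Mcpt4, Cma1 and Tpsb2, with mean levels between 1.92-fold and 2.65-fold those of control. The fifth, Tpsab1, had a higher mean but overlapping groups. With edgeR's quasi-likelihood test and Benjamini-Hochberg adjustment over 13454 genes, none of the 7 tested genes passed an adjusted p of 0.05 with a log2 fold change of at least 0.5, and neither did any gene of the table (0%), the smallest adjusted p being 0.0504. At an unadjusted p under 0.05, 4 of the 7 were higher in SRF and 0 lower, against 4.16% and 2.85% of all tested genes. With DESeq2, the tool the study used, at the same criteria, 2 of the 7 were called higher, Cma1 and Tpsb2, and 0 lower, against 0.803% and 0.334% of tested genes. On log2(FPKM + 0.1), limma called 0 of the 7 and 0.0149% of tested genes. The non-overlap of groups found in 4 of the 7 was met, in the higher direction, by 6.71% of tested genes, and 0 of the 7 were lower without overlap, against 6.43%. Mcpt4, Cma1 and Tpsb2, 3 of the 7, reached a log2 fold change of 1, against 0.914% of tested genes. Since the 7 genes were chosen with earlier results of these data known, these shares describe them and do not test the set. Mcpt4 passed the count criterion only through SRF mice 1 and 2, with 111 and 92 counts. Its control counts were 16, 39 and 43, so it was tested only because it was high in SRF. Its part in these shares is description only.

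**Figure D1:**
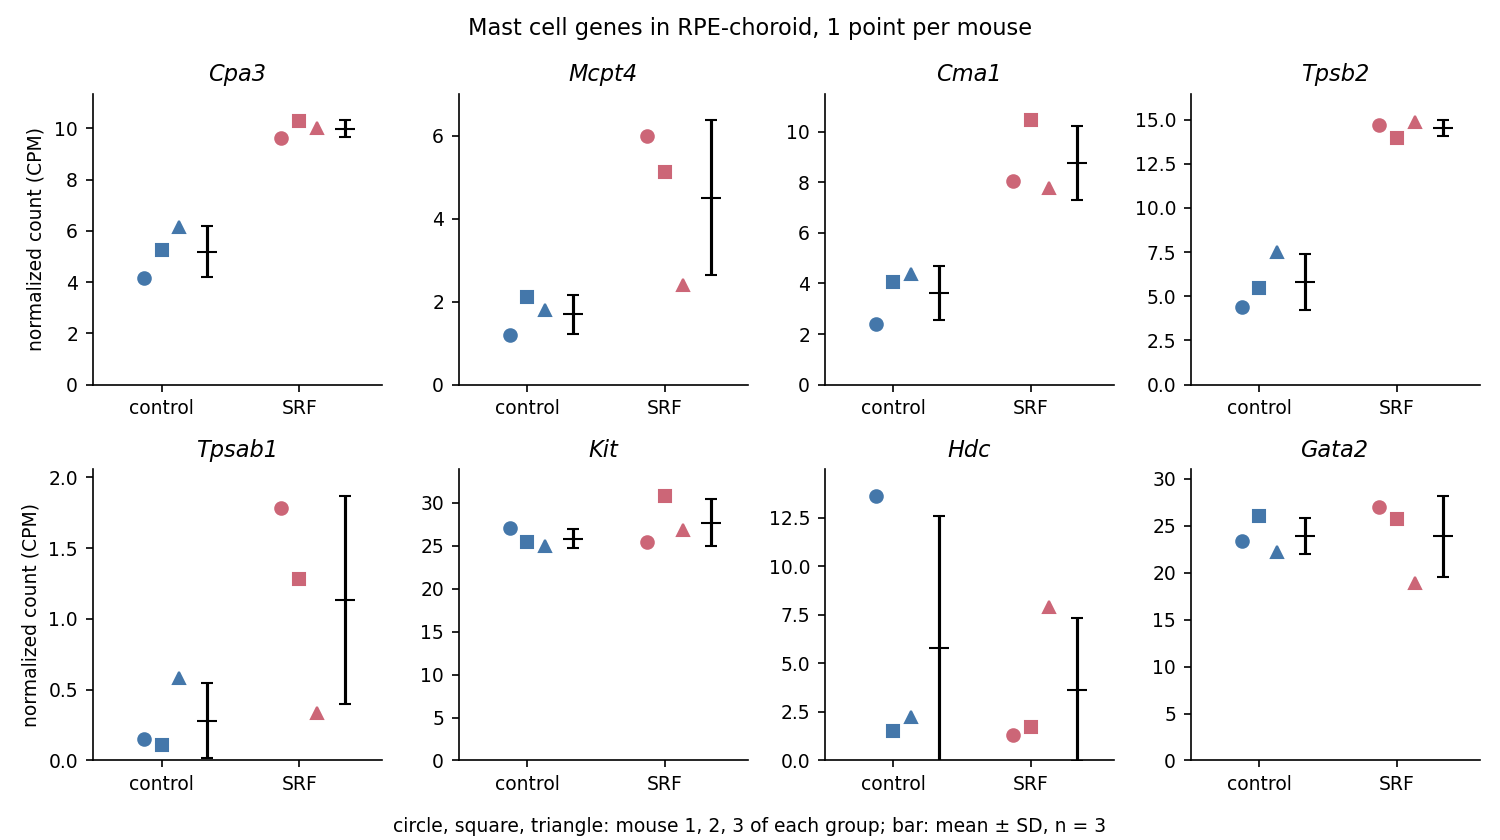
Normalized counts (CPM, linear axes from 0) of the 8 listed genes in each mouse, with control and SRF on the x axis, 1 marker per mouse and a bar for the mean and SD (n = 3); the lower end of the Hdc bars falls under 0 and is not drawn. Cpa3, Mcpt4, Cma1 and Tpsb2 show SRF mice wholly above control mice, Kit and Gata2 show groups side by side, and Hdc shows 1 high mouse in each group.

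Tpsb2 encodes the main tetramer-forming tryptase of connective tissue mast cells and was the most highly counted of the proteases. Its raw counts were 59, 101 and 180 in control mice 1, 2 and 3 and 272, 251 and 265 in SRF mice 1, 2 and 3. In normalized terms these are 4.39, 5.48 and 7.51 CPM against 14.7, 14.0 and 14.8 CPM, a mean of 5.79 ± 1.58 against 14.5 ± 0.466 CPM (SD, n = 3). The SRF mice lay close together and above every control mouse, and the control mice were spread more widely. The log2 fold change was 1.32 (SE 0.24, 95% confidence interval 0.76 to 1.88), with an edgeR p of 0.00084 and an adjusted p of 0.237 (Benjamini-Hochberg). DESeq2 gave 1.31 (SE 0.29) with an adjusted p of 0.00144 and called the gene, as it did with any 1 of the 6 mice left out.

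Cpa3 encodes the mast cell carboxypeptidase, an exopeptidase that trims residues from the C-terminal end of peptides. Control mice held 56, 97 and 147 Cpa3 counts and SRF mice 178, 185 and 179, or 4.17, 5.26 and 6.13 CPM against 9.62, 10.3 and 10.0 CPM. All 3 SRF mice were above all 3 control mice, and the SRF values differed by less than counting alone would give (SD 0.459 times that of counting). The mean was 5.19 ± 0.984 CPM in control and 9.98 ± 0.341 CPM in SRF, a log2 fold change of 0.94 (SE 0.22, 0.41 to 1.47), with an adjusted p of 0.370 by edgeR and 0.0684 by DESeq2 (both Benjamini-Hochberg).

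Cma1 and Mcpt4 are the chymase family members of the set. Cma1 had 32, 75 and 105 counts in control and 149, 188 and 139 in SRF, or 2.38, 4.07 and 4.38 CPM against 8.06, 10.5 and 7.79 CPM. The groups did not overlap, and control mouse 1, the shallowest library, was the lowest of the 6 for this gene. The log2 fold change was 1.27 (SE 0.31, 0.55 to 1.996), with an adjusted p of 0.380 by edgeR and 0.0442 by DESeq2 (Benjamini-Hochberg). With 1 mouse left out the DESeq2 adjusted p (Benjamini-Hochberg) of Cma1 ran from 0.0412 to 0.605, and the call was lost without control mouse 1, control mouse 2, SRF mouse 1 or SRF mouse 2. Mcpt4, regarded as the chymase closest in activity to the human enzyme, had 16, 39 and 43 counts in control and 111, 92 and 43 in SRF, or 1.19, 2.12 and 1.79 CPM against 6.00, 5.12 and 2.41 CPM. SRF mouse 3 stood just above the highest control mouse in CPM, well under the other SRF mice. Its raw count was the same as that of control mouse 3, so the separation of Mcpt4 holds in CPM and not in raw counts. The SRF spread was 3.76 times that of counting. The log2 fold change of Mcpt4 was 1.40 (SE 0.45, 0.34 to 2.46), with adjusted p-values of 0.533 by edgeR and 0.252 by DESeq2 (Benjamini-Hochberg).

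Tpsab1, the second tryptase, was close to the detection limit. Control mice held 2, 2 and 14 Tpsab1 counts and SRF mice 33, 23 and 6, or 0.149, 0.109 and 0.584 CPM against 1.78, 1.28 and 0.336 CPM. Control mice 1 and 2 were under 3 counts, SRF mice 1 and 2 were the highest, and SRF mouse 3 was lower than control mouse 3. When every listed gene was fitted, the log2 fold change was 1.91 (SE 0.82, interval -0.03 to 3.84) with an adjusted p of 0.764 (edgeR, Benjamini-Hochberg). As with Mcpt4, SRF mouse 3 was the lowest of the SRF group.

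**Figure D2:**
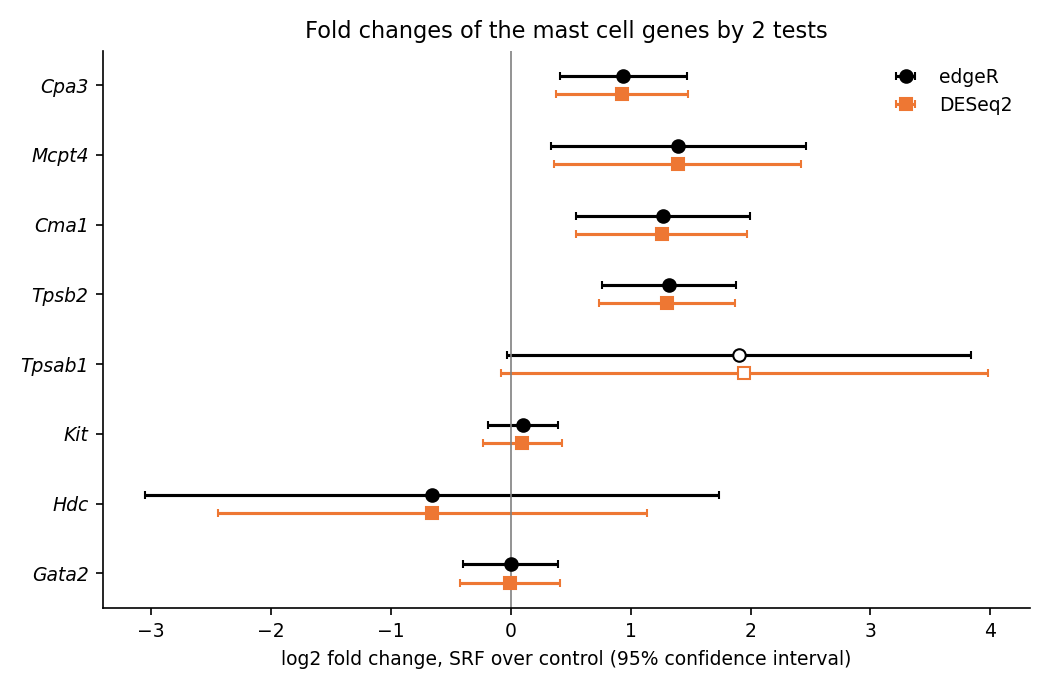
Log2 fold change of SRF over control (x axis) for the 8 listed genes, with points and 95% confidence intervals from edgeR (circles) and DESeq2 (squares); open symbols for Tpsab1 come from the fits of every listed gene. The intervals of Cpa3, Mcpt4, Cma1 and Tpsb2 lie above 0 with both tools, those of Kit and Gata2 are narrow around 0, and that of Hdc runs from -3.05 to 1.73 with edgeR.

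Summed over the 5 proteases, the libraries held 165, 314 and 489 counts in control and 743, 739 and 632 in SRF, or 12.3, 17.0 and 20.4 CPM against 40.2, 41.2 and 35.4 CPM. The summed level was 16.6 ± 4.08 CPM in control and 38.9 ± 3.08 CPM in SRF (SD, n = 3), 2.35 times the control level, or 2.46 times on the FPKM scale. In bulk tissue, more mast cells and more protease RNA per mast cell cannot be told apart. The mean log2 CPM of the 14 macrophage genes was 5.40 to 5.76 in control and 6.20 to 6.55 in SRF, a difference of 0.70, for which the two-sided exact permutation test gave p = 0.1, the smallest value 3 mice against 3 allow. Of these genes 9, among them Lyz2 and Cd68, lay higher in every SRF mouse than in any control mouse, and the other 5, among them Csf1r and Itgam, overlapped. The mean over the 10 RPE genes was 0.42 lower in SRF on the log2 scale (p = 0.1, same exact test), with 5 genes lower in every SRF mouse and 5 overlapping. The mean over the 8 T cell genes was 0.38 lower (p = 0.1, same exact test). Of these genes 3 were lower in every SRF mouse, 4 overlapped, and Il7r was higher in every SRF mouse. Among the lower ones, Cd8a (0.111 to 0.728 CPM in SRF) and Cd3d (0.390 to 0.865 CPM) were near the floor. For comparison, 6.71% of all tested genes lay wholly higher in SRF and 6.43% wholly lower. Among genes under the count criterion these shares were 6.52% and 3.26%. The list means for endothelium, melanocytes, skeletal muscle, photoreceptors and fibroblasts overlapped between the groups, with exact permutation p-values between 0.2 and 1. Among these lists the fibroblast and sclera mean differed most, 0.46 higher in SRF on the log2 scale (p = 0.2, same exact test). Of its genes, 1 lay higher in every SRF mouse and 9 overlapped. The part of these cell types in the protease difference was not tested. The basophil genes Mcpt8, Cd200r3, Prss34 and Il4, which mark the blood cell that shares the IgE receptor with mast cells, had no values here.

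**Figure D3:**
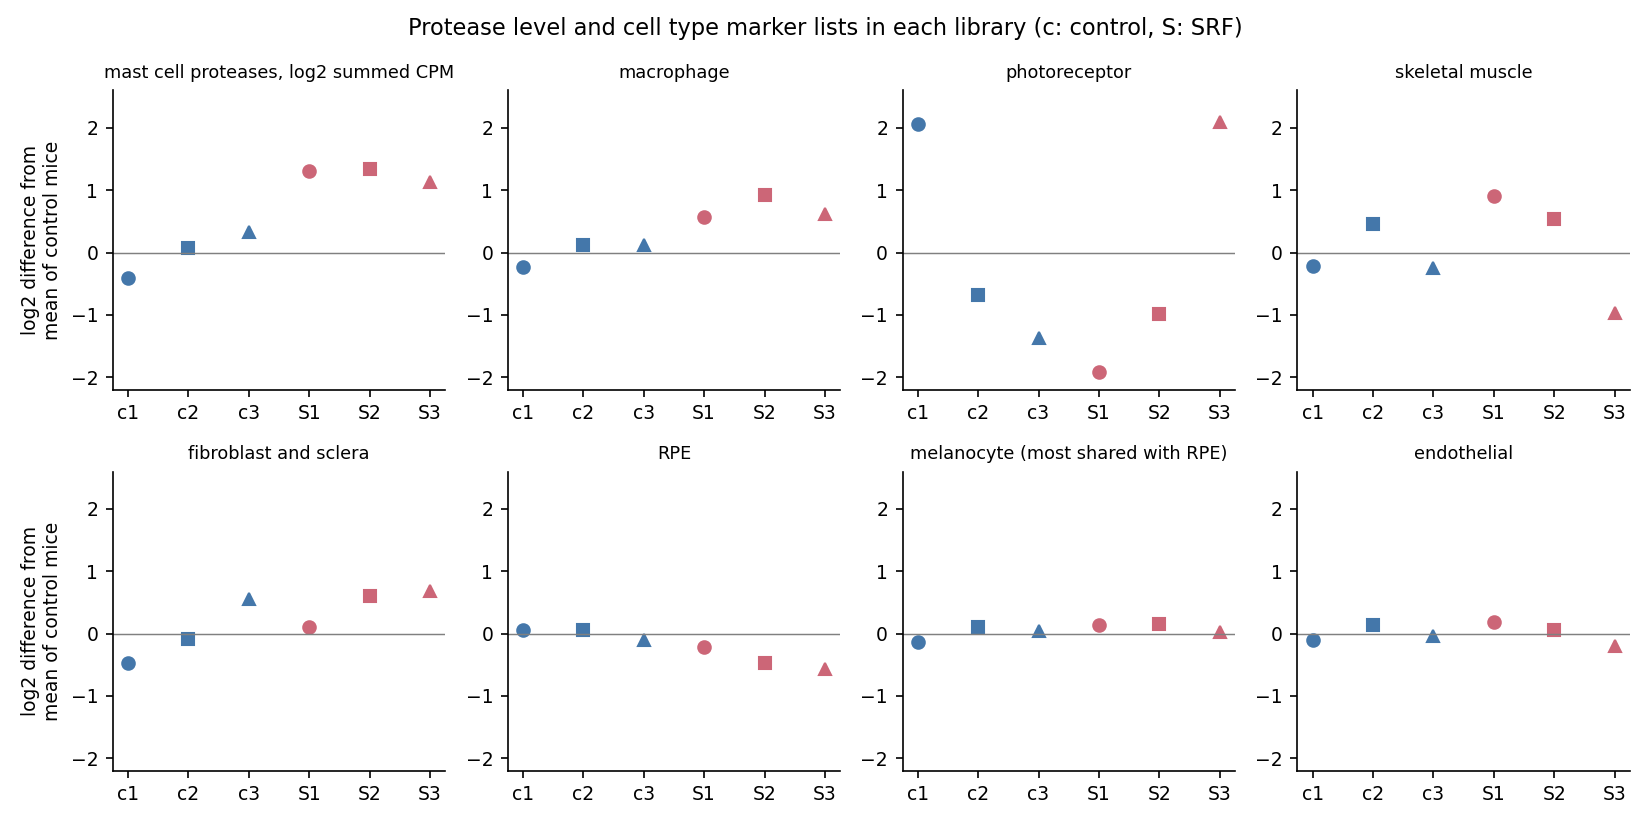
Level of the 5 summed proteases and mean level of 7 marker lists in each library, as the log2 difference (y axis) from the mean of the control mice, with control (c) and SRF (S) mice on the x axis. The summed proteases and the macrophage mean are higher in all 3 SRF mice, while the photoreceptor list is high in control mouse 1 and SRF mouse 3.

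The share of each protease in the summed protease counts was then compared. Tpsb2 and Cpa3 together made up most of them, with Tpsb2 at 32.2% to 36.8% in control and 34.0% to 41.9% in SRF. Cpa3 took 30.1% to 33.9% of the protease counts in control and 24.0% to 28.3% in SRF, and the ranges did not overlap. The 95% Wilson intervals of single libraries did overlap, for example 26.2% to 34.3% in control mouse 3 and 24.9% to 32.0% in SRF mouse 3. Cma1 took 19.4% to 23.9% in control and 20.1% to 25.4% in SRF. Mcpt4 differed between SRF mice, with 14.9% (95% Wilson interval 12.6% to 17.7%), 12.4% (10.3% to 15.0%) and 6.80% (5.09% to 9.04%) in SRF mice 1, 2 and 3, against 8.79% to 12.4% in control. The intervals cover counting error only, since the sources used here name no molecular identifiers. The interval of SRF mouse 3 lies under those of both other SRF mice, so its Mcpt4 share differed from theirs by more than counting error. Tpsab1 took 0.637% to 2.86% in control and 4.44%, 3.11% and 0.949% in SRF mice 1, 2 and 3.

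**Figure D4:**
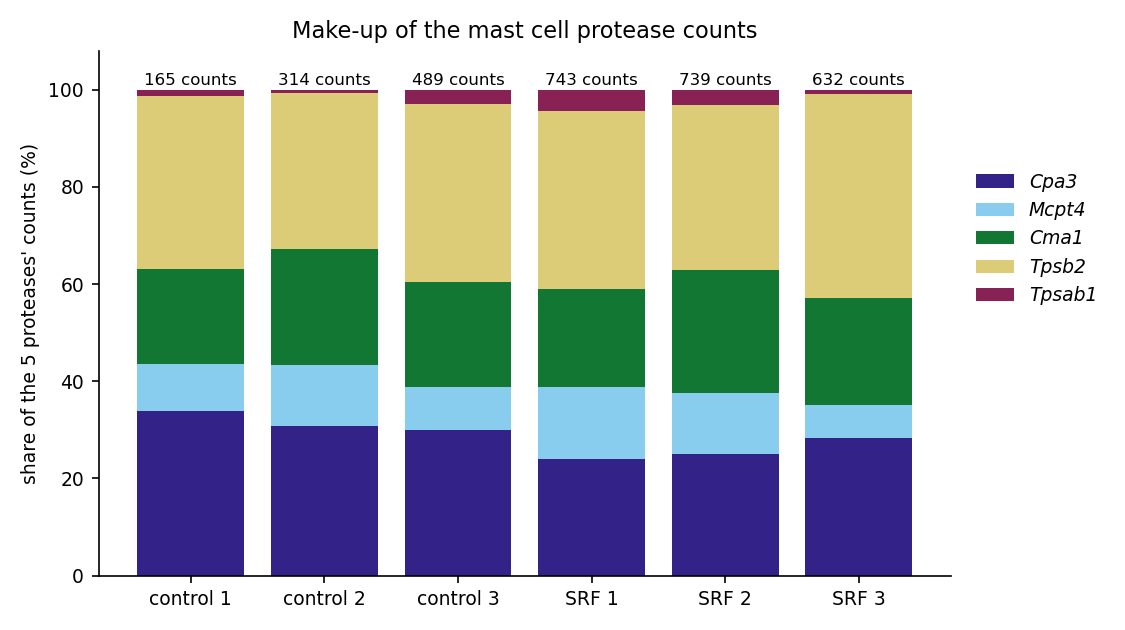
Share of each protease (y axis, percent) in the summed counts of the 5 proteases, 1 bar per library, with the summed count printed above. Tpsb2 and Cpa3 fill most of every bar, and Mcpt4 is narrowest in SRF mouse 3 at 6.80%.

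Levels of different genes were compared per transcript length, as FPKM. In control the order was Gata2 (7.24 ± 0.569 FPKM), Tpsb2 (5.09 ± 1.42), Kit (4.84 ± 0.201), Cpa3 (3.51 ± 0.666), Cma1 (3.30 ± 0.979), Hdc (2.38 ± 2.79), Mcpt4 (1.50 ± 0.407) and Tpsab1 (0.197 ± 0.151; all mean ± SD, n = 3). The FPKM ranges of Tpsb2 and Kit overlapped, as did those of each neighbouring pair from Cpa3 to Mcpt4, while Gata2 stood above Tpsb2, Kit above Cpa3 and Mcpt4 above Tpsab1 in every control mouse. In SRF Tpsb2 came first with 13.3 ± 0.403 FPKM, followed by Cma1 (8.29 ± 1.47), Gata2 (8.17 ± 0.540), Cpa3 (6.99 ± 0.281), Kit (5.37 ± 0.580), Mcpt4 (4.13 ± 1.72), Hdc (1.54 ± 1.55) and Tpsab1 (0.803 ± 0.503). Cma1 and Gata2 overlapped there, as did each neighbouring pair from Kit downwards, while Tpsb2 was above Cma1, Gata2 above Cpa3 and Cpa3 above Kit in every SRF mouse.

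Kit and Gata2, unlike the 4 tested proteases, had groups that overlapped. Kit, the receptor for stem cell factor and the growth and survival receptor of mast cells, is also used by melanocytes, which are abundant in the choroid. It had 363, 469 and 598 counts in control and 471, 553 and 478 in SRF, or 27.0, 25.4 and 24.9 CPM against 25.5, 30.8 and 26.8 CPM. The groups overlapped, with a log2 fold change of 0.10 (SE 0.12, interval -0.19 to 0.39) and an adjusted p of 0.996 (edgeR, Benjamini-Hochberg). That interval lies under the estimates of the 4 tested proteases, though it overlaps the interval of Mcpt4. The 10 melanocyte genes, most of which the RPE also uses, lay between 7.46 and 7.70 in control and between 7.62 and 7.75 in SRF as mean log2 CPM, and melanocyte and mast cell Kit RNA cannot be told apart in these libraries.

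Gata2, which endothelial cells use as well as mast cells, had 314, 479 and 533 counts in control and 499, 461 and 338 in SRF, or 23.4, 26.0 and 22.2 CPM against 27.0, 25.7 and 18.9 CPM. The means were 23.9 ± 1.92 and 23.9 ± 4.32 CPM, and the log2 fold change was -0.00 (SE 0.17, interval -0.40 to 0.40), with a positive sign when only library totals were used for scaling (0.050). SRF mouse 3 was the lowest of the 6 libraries for Gata2 in CPM, and not in raw counts or FPKM. Its FPKM was 7.55, against 6.74 in control mouse 3. The 12 endothelial genes had a mean log2 CPM of 6.38 to 6.62 in control and 6.27 to 6.66 in SRF.

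Hdc encodes histidine decarboxylase, the enzyme that makes histamine. It had 183, 28 and 54 counts in control and 24, 31 and 141 in SRF, or 13.6, 1.52 and 2.25 CPM against 1.30, 1.73 and 7.90 CPM. Control mouse 1 and SRF mouse 3 were high and the other 4 libraries low, so the spread was 10.8 times that of counting in control and 8.20 times in SRF. These are the same 2 libraries that were high in photoreceptor RNA. The log2 fold change was -0.66 (SE 1.01, interval -3.05 to 1.73) and turned to 0.94 without control mouse 1. With the photoreceptor level as a covariate it was -0.38 (SE 0.37), and without these 2 libraries -0.33 (SE 0.45), none of them passing the test. A group difference in Hdc was not detectable against this spread.

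The likeness of the genes over the 6 libraries was described by Pearson's r of log2 CPM with Tpsb2, without a p, since all 6 values share the group difference and the library depths. Cpa3 ranked second of all tested genes (r = 0.994), behind Chil1 (r = 0.995), which encodes a chitinase-like protein, and ahead of Rftn1 (0.989), Avpr1a (0.985) and Timp1 (0.984). Cma1 reached r = 0.956 (rank 41) and Mcpt4 0.822 (rank 533). Kit (0.327), Gata2 (-0.106) and Hdc (-0.325) were far from Tpsb2.

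The wider mast cell pathway was read from 6 lists with 91 genes, of which 75 had values and 58 were tested. These lists too were chosen with earlier results of these data known. Of these 58, 38 had a positive and 20 a negative log2 fold change, with a median of 0.14 against 0.00 over all tested genes. None was called by edgeR, and 11 were higher and 3 lower at an unadjusted p under 0.05, against 4.16% and 2.85% of all tested genes. DESeq2 called 4 higher (Fcer1g, Lat2, Spi1 and Vav1) and 0 lower, against 0.803% and 0.334%. With 1 mouse left out DESeq2 called between 1 (Spi1, without SRF mouse 2) and 7 (without control mouse 3) of these genes. The 4 genes are used by macrophages and other leukocytes as well as mast cells, and the mean of the macrophage markers was higher in the same SRF libraries, whose part in these calls was not tested.

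Of 20 genes for signalling below the IgE receptor 18 were tested, 16 with a positive log2 fold change, against 6773 of all 13454 tested genes, and the median was 0.42. At an unadjusted p under 0.05, 7 of the 18 were higher and 0 lower, against 4.16% and 2.85% of all tested genes. Fcer1g, the gamma chain that the IgE receptor shares with Fc gamma receptors, measured 62.2, 67.5 and 64.0 CPM in control against 115, 124 and 89.1 CPM in SRF. All SRF mice were above all control mice for Fcer1g, with a log2 fold change of 0.76 (SE 0.14) and an adjusted p of 0.254 by edgeR and 0.00176 by DESeq2 (Benjamini-Hochberg). The adaptor Lat2 measured 4.84, 6.35 and 8.30 CPM in control against 13.6, 22.5 and 14.4 CPM in SRF, a log2 fold change of 1.37 (SE 0.29). The exchange factor Vav1 had a log2 fold change of 1.19 (SE 0.26). The adaptor Lcp2 (0.73), the inhibitory phosphatase Inpp5d (0.48) and the calcium channel Orai1 (0.44) were also higher at an unadjusted p under 0.05 and not called by either tool. The most highly counted of the list, the calcium release channel Itpr1, measured 120 ± 5.87 CPM in control against 118 ± 10.3 CPM in SRF.

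Among the Kit ligand and the transcription factors of mast cell development, 8 of 11 genes were tested, 6 with a positive and 2 with a negative log2 fold change. Spi1, a myeloid transcription factor, measured 14.1, 14.4 and 14.2 CPM in control against 27.7, 27.8 and 23.3 CPM in SRF, a log2 fold change of 0.88 (SE 0.13), with an adjusted p of 0.198 by edgeR and 0.000352 by DESeq2 (Benjamini-Hochberg). Runx1, a blood lineage factor, had a log2 fold change of 0.66 (SE 0.24). Mitf, a factor that mast cells share with melanocytes and the RPE, measured 52.3, 66.0 and 62.4 CPM in control against 47.8, 41.2 and 34.8 CPM in SRF, with every SRF mouse under every control mouse and a log2 fold change of -0.55 (SE 0.16). The mean of the RPE markers was lower in the same SRF mice. Kitl, the ligand of Kit, measured 110 ± 8.81 CPM in control against 120 ± 8.86 CPM in SRF, with overlapping groups.

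Of 19 granule genes 15 were tested, 4 with a positive and 11 with a negative log2 fold change, and the median was -0.11. Srgn, the core protein to which granule heparin is attached, measured 80.7, 72.7 and 65.9 CPM in control against 78.1, 61.3 and 63.6 CPM in SRF, with overlapping groups. Ndst2, the sulfotransferase that mast cells need for heparin, was at 13.7, 11.2 and 9.47 CPM against 16.3, 19.0 and 15.9 CPM, higher in every SRF mouse (log2 fold change 0.58, SE 0.19, edgeR adjusted p 0.548, Benjamini-Hochberg). Stxbp3, a partner of the membrane fusion machinery, was lower in every SRF mouse with a log2 fold change of -0.31 (SE 0.13). Cd63, a granule membrane protein of many cell types and the most highly counted of this list, measured 1688 ± 133 CPM in control against 1575 ± 219 CPM in SRF.

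Of the 10 genes for lipid mediators, all were tested and 7 had a positive log2 fold change, with a median of 0.15. Alox5ap, which presents arachidonic acid for leukotriene synthesis, measured 8.11, 8.95 and 10.2 CPM in control against 14.0, 18.5 and 15.7 CPM in SRF, above control in every mouse. Its log2 fold change was 0.82 (SE 0.18), with an adjusted p of 0.321 by edgeR and 0.0542 by DESeq2 (Benjamini-Hochberg), above the threshold of 0.05 with both tools. Lta4h, the most highly counted of the list, measured 84.5 ± 2.59 CPM in control against 91.9 ± 5.44 CPM in SRF. Among 13 receptors and partners of the released mediators 6 were tested. The histamine-degrading enzyme Hnmt measured 52.9 ± 8.10 CPM in control against 38.8 ± 7.66 CPM in SRF (log2 fold change -0.45, SE 0.18), with overlapping groups and no call, and Il33, an alarmin read by mast cells and the most highly counted of the list, was at 57.1 ± 12.7 CPM against 71.8 ± 15.7 CPM, also with overlapping groups.

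**Figure D5:**
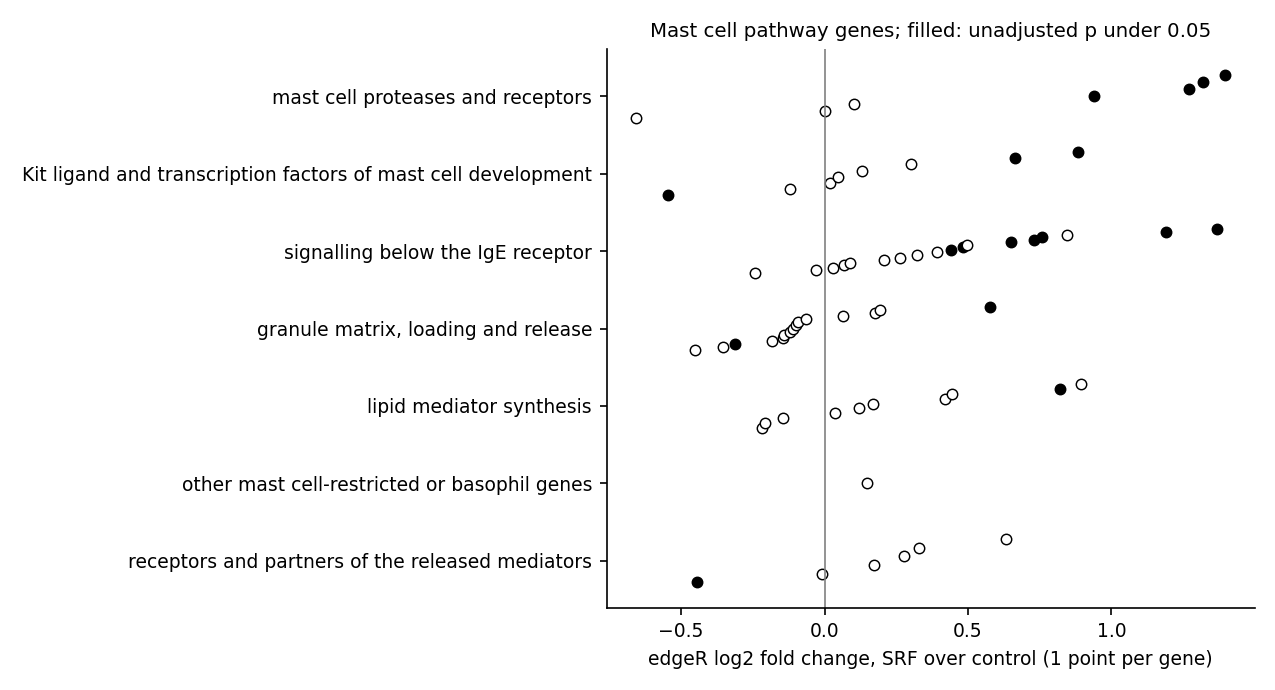
EdgeR log2 fold change of SRF over control (x axis) for the tested genes of the mast cell set and of 6 pathway lists (rows), 1 point per gene, filled at an unadjusted p under 0.05. The 4 filled points of the top row are the proteases between 0.94 and 1.40, and the IgE receptor signalling row holds 7 filled points, all above 0.

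Of 18 other genes listed for mast cells or basophils, 6 had values. Only P2rx1 reached the count criterion, at 3.52 ± 0.972 CPM in control and 3.88 ± 2.02 CPM in SRF. Not all of these genes are restricted to these cells, and which cells of the tissue gave their RNA was not tested. Over all 6 lists 17 genes had values but too few counts for the criterion. Of these, 1 lay wholly higher in SRF, 3 lay wholly lower and 13 overlapped, against 6.52% higher and 3.26% lower among all 2209 genes under the criterion. These 4 genes are named after their values were seen. The higher one was Mrgprb1, a receptor of the Mas-related family that connective tissue mast cells carry, with 2, 3 and 9 counts in control and 17, 24 and 13 in SRF (log2 fold change 2.02, SE 0.54, in the fit of every listed gene). The lower ones were Tph1, an enzyme of serotonin synthesis, with 22, 25 and 24 counts against 8, 10 and 9 (-1.40, SE 0.40), Grap2, an adaptor, with 11, 15 and 29 against 12, 10 and 7, and F2rl1, a receptor that tryptase can cleave, with 7, 12 and 29 against 7, 7 and 5. For Grap2 and F2rl1 the separation holds in CPM and not in raw counts. The edgeR adjusted p-values of the 4 genes in that fit (Benjamini-Hochberg) lay between 0.452 and 0.819.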

How the data were processed

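RNA-seq libraries of RPE-choroid from 3 control and 3 SRF mice were grouped by their labels. The authors filtered the reads, mapped them and counted reads per gene with StringTie, and deposited raw counts and FPKM values (scaled by transcript length and library) for each mouse. The aligner, build and strand setting are not given in the sources used here. Gene positions came from GENCODE M21 (GRCm38), which holds 15659 of the 15663 identifiers.

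Counts were tested as deposited with edgeR 4.0.16 (R 4.3.3; TMM, glmQLFit in its older form, glmQLFTest) on the 13454 genes past the study's criterion (over 50 counts in 2 or more samples). Benjamini-Hochberg adjustment ran over these genes, and calls needed an adjusted p under 0.05 and an absolute log2 fold change of at least 0.5. CPM values are TMM-normalized, and errors are SDs over 3 mice. Alternatives were DESeq2 1.42.0, limma 3.58.1 on log2(FPKM + 0.1) and log2(FPKM + 1), other scalings and filters, a replicate block, the photoreceptor level as a covariate, and leaving out libraries. DESeq2 with these changes was added after seeing the data. The scripts were tested on simulated data.

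The 10 genes, the pathway lists and the marker lists were chosen with earlier results of these data known. All 10 genes are described, and pathway genes are named where called, at an unadjusted p under 0.05, or as the most highly counted of their list. The values of 1 gene that this rule names are not reported here. Srgn, Mrgprb1, Tph1, Grap2 and F2rl1 lie outside this rule and were chosen after their values were seen. Equal mouse numbers in the groups name separate animals, and the correlations of their deviations from the group means were -0.48, 0.48 and -0.31, so the numbers do not pair them.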

Additional observations from a re-analysis of the deposited data

How the results depend on the processing

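The number of genes called depended on the tool. Over all tested genes edgeR called 0, and also 0 with RLE scaling and with the replicate block. It called 1 with the newer form of its fit, with library totals only, with no filter, with the filterByExpr defaults and with the photoreceptor covariate, limma on FPKM called 2 with either pseudocount, and leaving out 1 mouse gave 0 to 5, the 5 without control mouse 1. Without the 2 libraries rich in photoreceptor RNA edgeR called 154. DESeq2 called 153 with the criterion applied before or after the test, 154 with no filter, 201 with a replicate block, 257 with the covariate, 514 without those 2 libraries, and 237, 91 and 182 without control mouse 1, 2 or 3 and 153, 67 and 361 without SRF mouse 1, 2 or 3. Of the mast cell genes edgeR and limma called 0 under every alternative run, the replicate block included. DESeq2 called 2 (Cma1 and Tpsb2), also 2 with no filter and with the criterion applied after the test, 1 with the block (Tpsb2), 4 with the covariate (Cma1, Cpa3, Mcpt4 and Tpsb2), 3 without the photoreceptor-rich libraries (Cma1, Mcpt4 and Tpsb2) and 1 to 3 when 1 mouse was left out, with Tpsb2 called in all 6 of these fits. Cma1 was not called without control mouse 1, control mouse 2, SRF mouse 1 or SRF mouse 2. Of the other pathway genes edgeR called 0, with the block too, and 2 without the photoreceptor-rich libraries (Fcer1g and Spi1). DESeq2 called 4, also 4 with no filter and with the later criterion, 3 with the block, 6 with the covariate, 6 without those libraries and 1 to 7 when 1 mouse was left out (1, Spi1, without SRF mouse 2). Over 28 alternatives the log2 fold change of Cpa3 lay between 0.80 and 1.08, of Mcpt4 between 0.99 and 1.70, of Cma1 between 1.04 and 1.43, of Tpsb2 between 1.13 and 1.55 and of Kit between 0.01 and 0.16. Hdc turned to 0.94 without control mouse 1 with edgeR and with DESeq2, and ran from -1.92 to 0.94 over the edgeR fits without 1 mouse. Gata2, at -0.00, turned positive with limma (0.17 and 0.15), library totals (0.050), without the photoreceptor-rich libraries (0.13, DESeq2 0.12), without control mouse 2 (0.066, DESeq2 0.065) and without SRF mouse 3 (0.14, DESeq2 0.14), and ran from -0.099 to 0.14 over the edgeR fits without 1 mouse. The cause of these differences between tools was not tested. Tpsab1 held only 2 to 33 counts per library, and its spread was also above that of counting. The cause of its low counts was not tested.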
